A study of Homo sapiens with 6 samples.

Results

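KLK5 to KLK14 are the 10 kallikrein genes at the telomeric end of the KLK cluster on human chromosome 19, and they were taken here as the 40 kb bins of the contact maps that hold them. The bins run from the one that holds the start of KLK5 to the one that holds the end of KLK14, which gave 4 bins of 160 kb in all, out of 1018 usable bins on chromosome 19 and 63020 on chromosomes 1 to 22 and X. The rule that picks the bins uses gene positions and no contact value. The remaining 5 of the 15 KLK genes (KLK1, KLK15, KLK3, KLK2 and KLK4) fill the 3 bins before them and are called the KLK3 end.

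The contacts came from Hi-C, in which chromatin is fixed, cut with the enzyme BglII, ligated and sequenced, so that a read pair that joins 2 bins marks them as neighbours in space. The cells were LNCaP, an established line from a human prostate cancer, transfected with 20 nM of either a control siRNA or a pool of siRNAs against CTCF, split and transfected once more midway, and harvested 144 h after the first transfection. The control condition had 2 libraries and the CTCF siRNA condition 4, and the libraries of a condition were merged before deposit into 1 map each. The labels of the 4 CTCF siRNA libraries hold only 2 replicate numbers, each used again with a suffix, and the study describes its experiments as biological duplicates, so the 4 need not be separate cultures. No comparison below therefore has a test between conditions: the intervals cover counting error only, the spread between cultures was not measured, and the siRNA and any other difference between the 2 sets of libraries cannot be told apart. A siRNA lowers CTCF without removing it, and a contact map holds no measure of how far it fell.

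Kallikreins are secreted serine proteases that lie side by side in a single uninterrupted cluster. KLK3 encodes prostate-specific antigen and KLK2 its close relative, and both are androgen-responsive genes of the prostate epithelium, while several genes of the KLK5 to KLK14 stretch are best known from other tissues. CTCF is a zinc-finger protein that, together with cohesin, holds the bases of chromatin loops and marks many borders between contact domains. The question put to the maps was whether the KLK5 to KLK14 bins kept to themselves, leaned toward the KLK3 end or leaned toward the genes beyond KLK14, and what of that differed after CTCF siRNA.

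All 10 genes are on the minus strand of hg19 and span 141 kb. The first bin, chr19:51440001-51480000, holds the start sites of KLK5 (51446559 to 51456349) and KLK6 (51461887 to 51472929). KLK5 activates other kallikreins in the outer skin, and KLK6 is abundant in the nervous system. The second bin, chr19:51480001-51520000, holds those of KLK7 (51479724 to 51487355), KLK8 (51499263 to 51505967) and KLK9 (51505764 to 51512890). KLK7 cleaves the junctions between shed skin cells and KLK8, or neuropsin, acts at synapses. The third bin, chr19:51520001-51560000, holds the start sites of KLK10 (51515995 to 51523431), KLK11 (51525472 to 51531295) and KLK12 (51532348 to 51538486). The fourth bin, chr19:51560001-51600000, holds KLK13 (51558883 to 51568371) and KLK14 (51580752 to 51587502), the latter a trypsin-like protease of the skin. KLK7, KLK10 and KLK13 cross a bin edge, so a contact of their bin cannot be given to a single gene. A gap of 20.4 kb, which holds no protein-coding gene, separates KLK12 from KLK13, and another of 12.4 kb separates KLK13 from KLK14.

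Beyond KLK14 the next 14 bins (560 kb) were taken as the SIGLEC block, named for the sialic acid receptors of white blood cells that make up much of it. The 5 bins after that (200 kb) form the FPR block, with the formyl peptide receptors FPR1, FPR2 and FPR3. The last 11 bins (440 kb), with 11 zinc-finger genes of the ZNF family among 12 protein-coding genes, form the zinc-finger block, which ends 1.2 Mb from the segment.

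The core letters of the CTCF motif were searched for on both strands as CCNNNAGGGGGC, CCNNNAGATGGC, CCNNNAGAGGGC and CCNNNAGGTGGC, spellings that cannot overlap each other at the same place. The 4 bins held 9 matches, with 1, 3, 2 and 3 from first to last, against a median of 2 per bin on chromosome 19, where 80.9% of bins held at least 1. The 3 bins of the KLK3 end held 14. The KLK13 and KLK14 bin and the bin just after it, chr19:51600001-51640000 with CTU1 and SIGLEC9, are shown in full because the control map was most insulated there among these bins, with the 12 motif letters in capitals and 4 neighbouring bases on each side from GRCh37.
match21, in KLK13, chr19:51563346-51563357, minus strand: tgcaCCCACAGGGGGCtcaa
match22, between KLK13 and KLK14, chr19:51569317-51569328, plus strand: tcagCCCCCAGATGGCcgtg
match23, between KLK13 and KLK14, chr19:51578921-51578932, minus strand: ggaaCCCTAAGGTGGCaggt
match24, between KLK14 and CTU1, chr19:51600826-51600837, minus strand: ctgaCCACCAGGGGGCgccg
match25, between CTU1 and SIGLEC9, chr19:51615758-51615769, minus strand: atgaCCTGGAGATGGCaagg
match26, between CTU1 and SIGLEC9, chr19:51623230-51623241, plus strand: ggatCCAGGAGATGGCctta
match27, in SIGLEC9, chr19:51628731-51628742, plus strand: tgccCCAGGAGAGGGCttag
match28, in SIGLEC9, chr19:51635811-51635822, minus strand: atgtCCACCAGATGGCcttt
These are places where the letters occur. No binding was measured in the contact maps.

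The deposited 40 kb maps summed to 26174658 read pairs for control and 87657579 for CTCF siRNA, of which 52.2% and 64.2% joined 2 places on the same chromosome. The chromosome 19 contacts of the 4 bins numbered 386, 371, 257 and 486 in control and 2510, 2487, 1604 and 3093 after CTCF siRNA, where the median usable bin of chromosome 19 had 305 and 1894.5. The gain in contacts was thus about the same in each bin, between 6.24 and 6.70 times, with a chromosome median of 6.35. The KLK10, KLK11 and KLK12 bin was the thinnest of the 4 in both maps and the KLK13 and KLK14 bin the richest. GC content of the 4 bins lay between 49.1% and 50.7%, and they held 7, 6, 6 and 10 BglII sites, so the KLK13 and KLK14 bin also had the most cut sites. Contacts are given below as observed over expected, the expected number being the chromosome 19 mean for bins the same distance apart in the same map. The expected number takes no account of how many contacts a bin has in all, so a rich bin has high values with most partners. A contact ratio is this value after CTCF siRNA divided by that in control.

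In the control map the KLK5 to KLK14 bins had more of their contacts on the KLK3 side, and after CTCF siRNA this was no longer so for the 4 bins as a whole. Counting partners within 1200 kb on each side, control had 458 contacts on the KLK3 side and 279 on the SIGLEC side, which put 62.1% on the KLK3 side (95% exact binomial interval 58.5% to 65.7%). After CTCF siRNA the numbers were 2583 and 2880, and the share was 47.3% (46.0% to 48.6%). Distance alone would give 48.8% in either map. The difference was -14.9 percentage points (counting SD 1.91). Of 858 segments of 4 bins along chromosome 19 that could be measured in this way, 6.64% fell by at least 10 percentage points.

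All 4 bins had a lower share after CTCF siRNA, though not by the same amount. The KLK5 and KLK6 bin went from 66.2% to 53.7% (51.1% to 56.3%), and the KLK13 and KLK14 bin from 56.7% to 43.8% (41.5% to 46.1%). The KLK7, KLK8 and KLK9 bin had 69.0% in control and 44.7% (42.1% to 47.5%) after CTCF siRNA. Distance alone would give 63.6%, 34.3% and 53.0% for these 3 bins in the control map. The control interval of the KLK5 and KLK6 bin, 59.2% to 72.7%, includes its share from distance. The KLK13 and KLK14 bin (50.1% to 63.0%) and the KLK7, KLK8 and KLK9 bin (61.8% to 75.6%) lay above theirs. In the CTCF siRNA map distance alone would give 62.6%, 35.2% and 52.7%. The first and second bins then lay below that share and the KLK13 and KLK14 bin above it. The CTCF siRNA value of the 4 bins together thus averages departures in both directions. For the KLK10, KLK11 and KLK12 bin the shares were 55.4% and 48.1%, a difference of -7.22 points whose interval, -17.0 to 2.58, includes 0. With only the 3 nearest bins on each side the share was 45.2% in control and 40.5% after CTCF siRNA, and the interval of the difference, -10.9 to 1.49 points, includes 0. The bins again departed in both directions: at this range the KLK13 and KLK14 bin had 37.3% in control (28.2% to 47.0%) and 34.8% after CTCF siRNA (31.4% to 38.4%), above the 27.3% and 27.7% that distance alone would give.

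**Figure D1:**
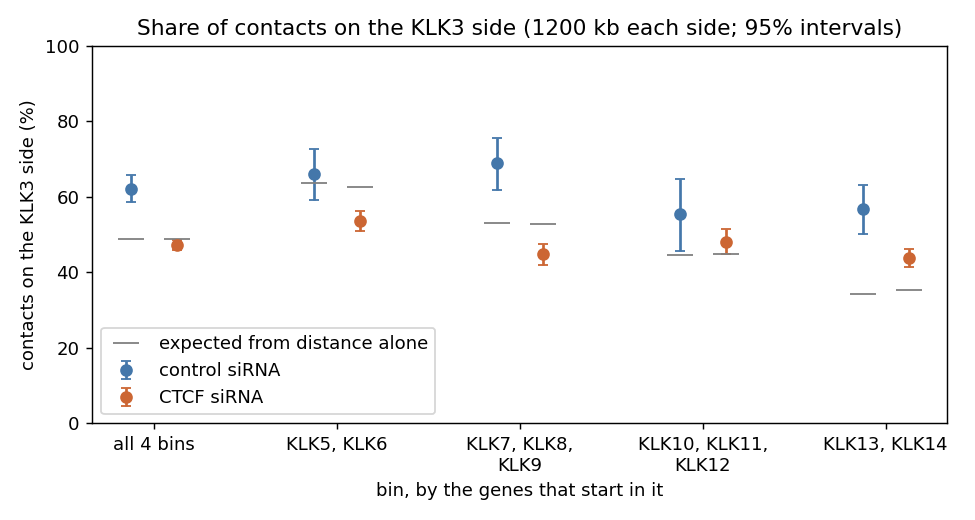
The vertical axis gives the percentage of contacts within 1200 kb that lay on the KLK3 side, for all 4 bins together and for each bin, with exact binomial 95% intervals, and the grey dashes mark the share expected from distance alone. In control all 4 bins together stood at 62.1% and after CTCF siRNA at 47.3%, beside the dash at 48.8%.

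Contacts with the KLK3 end as a whole did not differ between the maps beyond counting error. The 4 bins shared 128 contacts with the 3 bins of the KLK3 end in control, an observed over expected value of 0.899 (0.7501 to 1.07), and 794 after CTCF siRNA, a value of 0.910 (0.847 to 0.975). The contact ratio was 1.01 (0.838 to 1.23), but it was 1.48 with expected values from all autosomes in place of chromosome 19. At the same spacing along chromosome 19 the median ratio of 898 placements was 0.989, and 3.01% were higher by at least 1.5-fold. Of the 12 bin pairs between the 4 bins and the KLK3 end, 0 had an interval that excluded 1, but summed over the 4 bins the bin of KLK2 and the body of KLK3 did: it had 18 contacts in control (0.427) and 202 after CTCF siRNA (0.784), a ratio of 1.84 (1.13 to 3.16). All chromosome 19 contacts of this bin went from 279 to 2345, or 8.41 times, against a chromosome median of 6.35. The ratio and its interval take no account of that general gain.

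Within the pairs with the KLK3 end the KLK13 and KLK14 bin had the highest values of the 4 bins in both maps. Although it is the farthest of the 4 from the KLK3 end, its value with the 3 bins was 1.87 in control and 1.89 after CTCF siRNA, from 41 and 259 contacts. The KLK10, KLK11 and KLK12 bin had 0.595 and 0.612. Chromosome 19 contacts were many in the KLK13 and KLK14 bin in general, at 1.59 and 1.63 times the chromosome median, and with the counts balanced so that all bins have like totals its values were 1.49 and 1.48, against 0.697 to 1.03 in control and 0.735 to 0.955 after CTCF siRNA for the other 3. With the bin of KLK1, KLK15 and the start of KLK3, the KLK13 and KLK14 bin had 15 contacts in control (2.46) and 72 after CTCF siRNA (1.85). With the KLK4 bin it had 19 (2.21) and 109 (2.05), while with the KLK2 bin it had only 7 (0.965) in control and 78 (1.73) after CTCF siRNA. KLK4, an enzyme of enamel formation that is also made in the prostate, is the nearest of the 5 genes to KLK5. Bin by bin, that KLK2 bin was poor in contacts with the first 3 bins, with values of 0.262, 0.272 and 0.465 in control and 0.560, 0.601 and 0.600 after CTCF siRNA. These rest on 4, 3 and 4 contacts in control, and all 3 ratios have intervals that include 1.

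**Figure D2:**
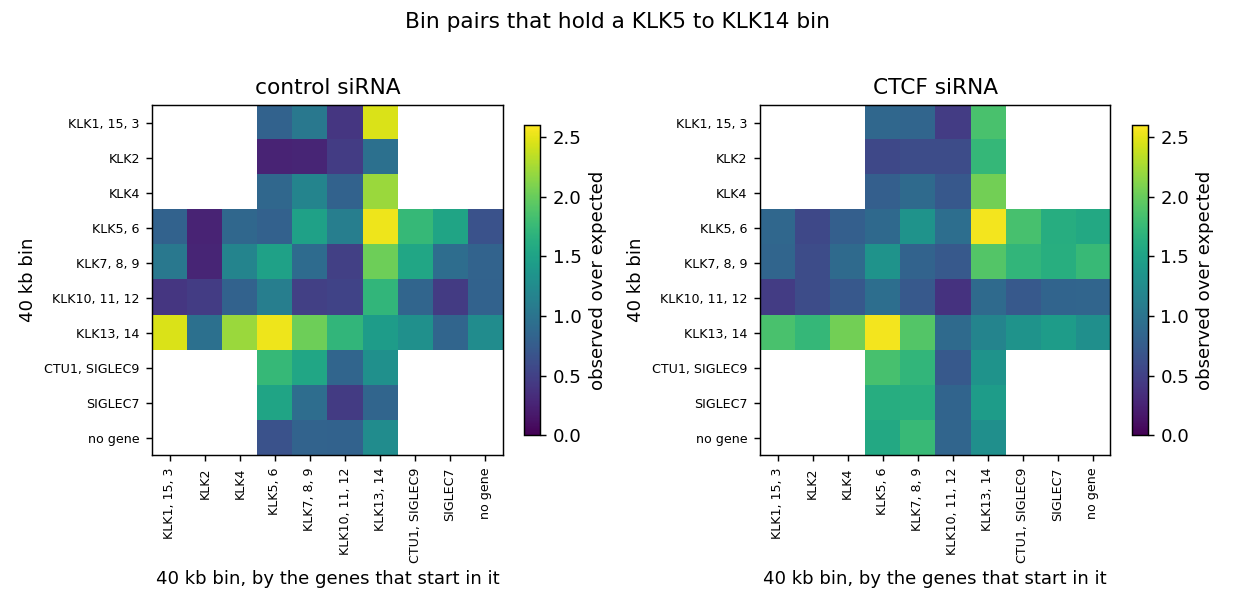
Each square is a pair of 40 kb bins named by the genes that start in them, and the colour gives contacts observed over expected from 0 to 2.6, with control on the left and CTCF siRNA on the right; pairs without a KLK5 to KLK14 bin are left white. The row of KLK13 and KLK14 is brightest against the KLK5 and KLK6 bin, at 2.54 and 2.55, and is dim against the KLK2 bin in control, at 0.965, and against the KLK10, KLK11 and KLK12 bin after CTCF siRNA, at 0.896.

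In sum, contacts among the 4 bins were above the distance mean in both maps. There were 195 in control, at 1.41 times the expected number (1.22 to 1.62), and 1022 after CTCF siRNA, at 1.205 times (1.13 to 1.28). The ratio was 0.854, with an interval of 0.732 to 1.001. This direction depends on the expected values: with the mean of all autosomes in place of chromosome 19 the ratio was 1.25. Not every pair of bins was above the mean. The KLK7, KLK8 and KLK9 bin with the KLK10, KLK11 and KLK12 bin had 0.497 in control and 0.730 after CTCF siRNA. The KLK5 and KLK6 bin had 1.49 and 1.33 with the former, and 1.11 and 0.937 with the latter. In control the pairs with the KLK13 and KLK14 bin, given below, were all higher than these.

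The lowest of these ratios belonged to 2 adjacent bins. Between the KLK10, KLK11 and KLK12 bin and the KLK13 and KLK14 bin control had 55 contacts (1.71) and CTCF siRNA 178 (0.896), a ratio of 0.525 (0.386 to 0.723). This was the only one of 34 pairs among and next to these bins whose interval excluded 1, and it was singled out after the values were seen. The pair of the first and last bins, KLK5 and KLK6 with KLK13 and KLK14, was the highest without balancing and had about the same value in both maps, 2.54 from 28 contacts and 2.55 from 170. The KLK7, KLK8 and KLK9 bin with the KLK13 and KLK14 bin gave 2.03 and 1.91. With balanced counts the pair of the first and last bins had 1.68 in control and 1.75 after CTCF siRNA. It then lay in control below the KLK10, KLK11 and KLK12 bin with the KLK13 and KLK14 bin, at 1.87.

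Beyond KLK14 the picture was different. With the SIGLEC block the 4 bins had 263 contacts in control, at 0.863 of the expected number (0.762 to 0.974), and 2483 after CTCF siRNA, at 1.27 (1.22 to 1.32). The ratio was 1.47 (1.297 to 1.68), where the median of 915 placements along the chromosome was 1.002, with 2.73% at or above the ratio seen here and 2.19% at or above 1.5-fold, which this ratio did not reach. Against the KLK3 end as partner the gain was larger by a factor of 1.46 (1.16 to 1.83). Of the 14 bins, 13 had a higher value after CTCF siRNA, and the number above expected went from 3 to 9.

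Toward the SIGLEC block the ratio was above 1 for each of the 4 bins. The KLK5 and KLK6 bin went from 63 contacts (1.15) to 567 (1.57), a ratio of 1.37 (1.05 to 1.80). The KLK7, KLK8 and KLK9 bin had the largest ratio, 1.74 (1.32 to 2.34), with 55 contacts in control and 621 after CTCF siRNA. For the KLK13 and KLK14 bin the ratio was 1.47 (1.19 to 1.82), and for the KLK10, KLK11 and KLK12 bin 1.299, with an interval of 0.955 to 1.80 that includes 1. The intervals of the 4 bins overlap, so their order is not settled.

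In the bin next to the segment there was no gain beyond counting error. The bin of CTU1 and SIGLEC9, right after KLK14, had 87 contacts with the 4 bins in control (1.296) and 545 after CTCF siRNA (1.32), a ratio of 1.02 (0.814 to 1.298). CTU1 encodes an enzyme that modifies transfer RNA. With the SIGLEC7 bin the contacts were 37 (0.877) and 349 (1.35), a ratio of 1.54 (1.099 to 2.23). With the bin after that, which holds no protein-coding gene, they were 31 (0.939) and 271 (1.33), a ratio of 1.42 whose interval of 0.974 to 2.13 includes 1. Over the 3 nearest bins the ratio was 1.23 (1.04 to 1.46), and compared with the 3 bins of the KLK3 end, at the same distances, it was higher by a factor of 1.21 with an interval of 0.943 to 1.56 that includes 1.

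Among partner bins with at least 10 contacts expected in control, those with the highest ratios lay 240 to 400 kb beyond KLK14. Higher ratios were found with fewer contacts expected. The bin of SPACA6 and HAS1, 640 kb beyond KLK14, had 2 contacts (0.328) in control and 91 (2.05) after CTCF siRNA, a ratio of 6.25 (1.68 to 52.4). On the KLK3 side the bin of MYBPC2, GARIN5A and EMC10 had 2 (0.212) and 56 (0.862), a ratio of 4.07 (1.08 to 34.4). Of 21 partner bins on both sides with at least 10 contacts expected in control, 7 were higher by at least 1.5-fold and 3 lower. Over all segments of 4 bins on the chromosome 17.9% of such partners were higher and 14.4% lower by this much. The 3 highest and 3 lowest were taken for their values and are given as a description. With the bin of IGLON5 and VSIG10L, control had 11 contacts (0.559) and CTCF siRNA 238 (1.85), a ratio of 3.31 (1.82 to 6.71). With the bin of LIM2, C19orf84 and SIGLEC10 the numbers were 8 (0.542) and 159 (1.59), a ratio of 2.94 (1.46 to 6.93). With the bin that holds parts of SIGLEC8 and SIGLEC12 and all of CEACAM18 they were 3 (0.255) and 73 (0.914), a ratio of 3.59 with a wide interval of 1.18 to 17.8. The next bin, with SIGLEC12 and SIGLEC6, was among the 3 lowest, at 12 contacts (1.14) and 54 (0.749), though its interval of 0.347 to 1.35 includes 1.

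**Figure D3:**
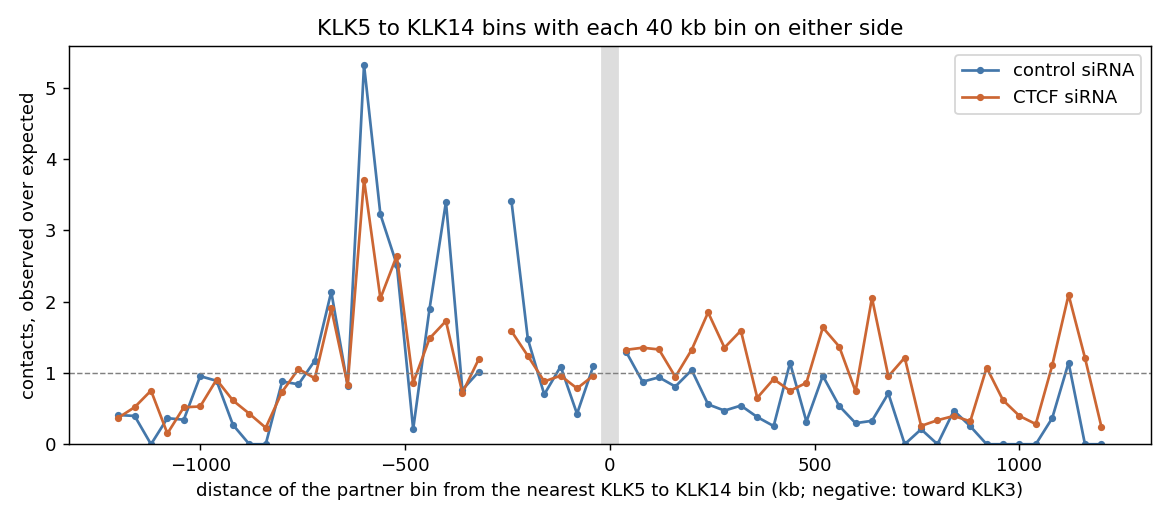
The horizontal axis is the distance of each 40 kb partner bin from the nearest of the 4 bins, negative toward KLK3, and the vertical axis the contacts with all 4 bins, observed over expected. On the right the CTCF siRNA line lies above the control line in 28 of 30 bins. In 8 of these 30 bins control had no contact, so there the line of the deeper CTCF siRNA map could not lie below. On the left both maps have peaks, the highest at 5.32 in control and 3.71 after CTCF siRNA. The gap is a bin that was not usable.

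Contacts with the FPR and zinc-finger blocks were few in control. The 4 bins had 9 contacts with the FPR block, 0.318 of the expected number (0.145 to 0.603), and 7 with the zinc-finger block, 0.194 (0.0778 to 0.399). After CTCF siRNA they had 221 and 176 contacts, at 1.07 (0.933 to 1.22) and 0.685 (0.587 to 0.794). The ratios were 3.37 (1.74 to 7.46) and 3.54 (1.68 to 8.92). The second was 5.48 with expected values from all autosomes and 2.36 without the KLK13 and KLK14 bin. Ratios this far from the diagonal vary more. With the spacing of the FPR block the median of 895 placements was 1.06, and 20.9% reached 1.5-fold. With that of the zinc-finger block the median of 881 was 1.09, and 23.4% did. The ratios seen here were reached or passed by 1.45% of placements for the FPR block and 1.14% for the zinc-finger block.

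In control 7 of the 11 zinc-finger bins had no contact with the 4 bins, where 2.44 to 4.54 were expected. In the deeper CTCF siRNA map each of the 11 had between 4 and 39. The KLK13 and KLK14 bin had 0 contacts with the whole block in control and 59 after CTCF siRNA. With 3 contacts taken as the limit that a count of 0 allows, its value after CTCF siRNA was 2.73-fold higher at that limit. The exact interval of the ratio starts lower, at 2.15. At the same limit the 7 zinc-finger bins without a contact in control had ratios of 0.201 to 1.32, so most of them cannot be called higher singly. For the KLK7, KLK8 and KLK9 bin a single contact in control was set against 61. For the KLK5 and KLK6 bin the contacts were 3 and 32, and for the KLK10, KLK11 and KLK12 bin 3 and 24, with ratios of 1.52 and 1.118 whose intervals, 0.475 to 7.76 and 0.340 to 5.80, include 1. If the 4 bins met the zinc-finger bins as often as they met an average bin of another chromosome, 0.329 contacts would be counted in control and 0.806 after CTCF siRNA.

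**Figure D4:**
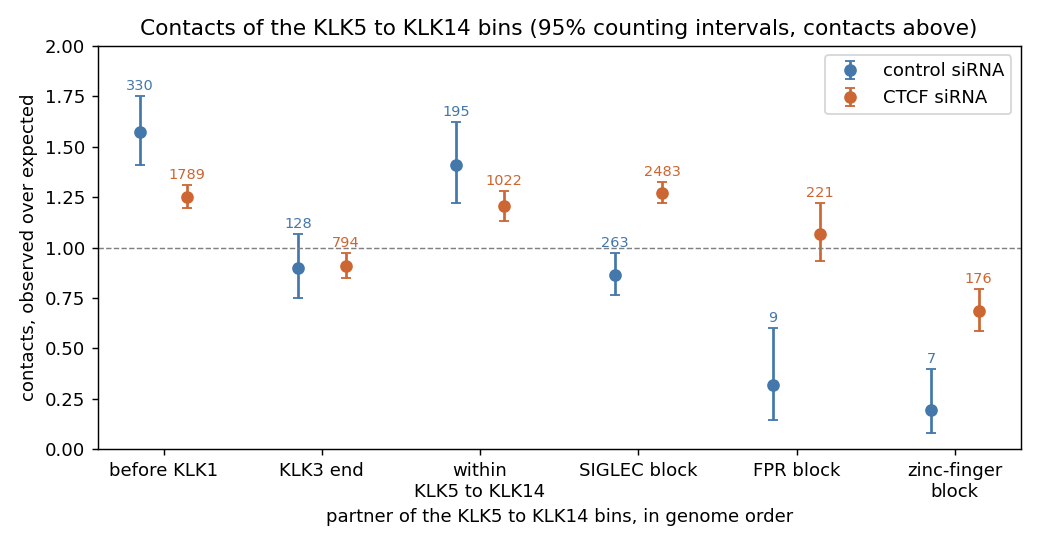
Points give the contacts of the 4 bins, observed over expected, with each partner in genome order, bars the 95% Poisson intervals and the numbers above them the contacts counted. The 2 conditions overlap for the KLK3 end, at 0.899 and 0.910, and are apart for the SIGLEC, FPR and zinc-finger blocks.

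Ratios above 1 were also found from the bins on the KLK3 side. From the KLK3 end the contacts with the SIGLEC block went from 92 (0.731) to 1087 (1.28), a ratio of 1.75 (1.41 to 2.19), so the ratio from KLK5 to KLK14 was 0.844 times that from the KLK3 end (0.658 to 1.08). With the FPR block the KLK3 end had 8 and 99 contacts, a ratio of 1.72 whose interval of 0.839 to 4.09 includes 1. The ratio from KLK5 to KLK14 was 1.959 times this (0.734 to 5.23). The 10 bins before KLK1 had ratios of 1.28 (1.14 to 1.46) with the SIGLEC block and 2.20 (1.42 to 3.60) with the FPR block. With the zinc-finger block the KLK3 end had a ratio of 2.69 (1.2004 to 7.496), and the 10 bins before KLK1 had 3.60 (2.08 to 6.84). The ratio from KLK5 to KLK14 was 1.31 times that of the KLK3 end (0.430 to 4.005) and 0.982 times that of the 10 bins before KLK1 (0.385 to 2.51), and both intervals include 1. The SIGLEC block had a ratio of 1.53 with the zinc-finger block (1.29 to 1.82), from 145 contacts (0.513) and 1551 (0.783), and the ratio from KLK5 to KLK14 was 2.32 times this (1.07 to 5.02). Its contacts with the FPR block were 468 (1.33) in control and 2859 (1.26) after CTCF siRNA, a ratio of 0.948 (0.860 to 1.05), and the ratio from KLK5 to KLK14 was 3.55 times this (1.81 to 6.96).

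On the KLK3 side, contacts beyond KLK1 were lower in sum after CTCF siRNA, though not in every bin. From 1200 kb up to KLK1 there were 330 contacts in control, at 1.57 (1.41 to 1.75), and 1789 after CTCF siRNA, at 1.25 (1.19 to 1.31), a ratio of 0.796 (0.707 to 0.898). This ratio was not recomputed with expected values from all autosomes, a choice that raised every contact ratio it was tried on. It was also not set against placements along the chromosome. Of the 26 usable bins from 1200 kb up to KLK1, 13 had a higher value after CTCF siRNA, and the median bin had 0.861 and 0.872. Without the bins of SHANK1, LRRC4B and NAPSA, the ratio was 0.992 (0.850 to 1.16). These 3 were chosen for their values, so leaving them out had to move the ratio toward 1 and says nothing of the other bins' part in it. Of 10 partners on this side with at least 10 contacts expected in control, 2 had an interval below 1 and 1, the KLK2 bin given above, an interval above 1. The bin of SHANK1, a scaffold gene of synapses, and CLEC11A, a growth factor gene, had 67 contacts in control (3.41) and 204 after CTCF siRNA (1.59), a ratio of 0.465 (0.352 to 0.623). The bin of LRRC4B, a gene for a synaptic adhesion protein, had 40 (3.40) and 138 (1.73), a ratio of 0.508 (0.355 to 0.742). The SHANK1 and LRRC4B bins are the other 2 of the 3 lowest partners. From the 3 bins after the segment, the LRRC4B bin had 5.51 and 3.19, a ratio of 0.579 (0.391 to 0.880). From the KLK3 end it had 0.958 and 1.09.

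Seen from the single bins, the control intervals with the SHANK1 bin overlap. The KLK5 and KLK6 bin had 21 contacts with it in control (3.44) and 49 after CTCF siRNA (1.26), and the KLK7, KLK8 and KLK9 bin 20 (3.84) and 48 (1.40), with a ratio of 0.366 for each. The KLK13 and KLK14 bin had 17 (4.39) and 62 (2.38), a ratio of 0.542, and with balanced counts its control value of 1.956 was below that of the 4 bins together, 2.05. The KLK10, KLK11 and KLK12 bin had 9 (2.01) and 45 (1.52), and its interval of 0.365 to 1.76 includes 1. From the KLK3 end, which lies nearer, the value was 1.64 in control and 1.13 after CTCF siRNA, a ratio of 0.693 (0.497 to 0.986). From the 3 bins after the segment it was 3.25 and 2.54, a ratio of 0.783 whose interval of 0.528 to 1.198 includes 1.

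The highest value in control was with the bin of NR1H2 and NAPSA, 600 kb from KLK5, which was singled out after the values were seen. NR1H2 encodes a sterol-sensing nuclear receptor and NAPSA an aspartic protease of lung and kidney. It had 36 contacts with the 4 bins in control (5.32) and 180 after CTCF siRNA (3.71), a ratio of 0.698 with an interval of 0.486 to 1.03 that includes 1. The KLK13 and KLK14 bin was highest here too, with 8.91 and 5.55 from 13 and 59 contacts. From the KLK3 end the values were 3.20 and 3.27. From the 3 bins after the segment they were 7.95 and 5.33, above those of the 4 bins together, so these contacts were not particular to KLK5 to KLK14. This partner bin is itself among the rich ones, with 864 and 5439 contacts on chromosome 19, or 2.83 and 2.87 times the median, and 14 BglII sites against a median of 8. With balanced counts its values with the 4 bins were 2.23 and 1.72, below those of the LRRC4B bin in control, which then had 2.29 and 1.19. The SHANK1 bin had 2.05 and 1.02.

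The insulation value sums these patterns around each bin. It is the log2 ratio of the contacts that cross the bin, between the 400 kb on either side, over the contacts within the 2 flanks, each against expected, so that a low value marks a border. In control the 4 bins had 0.13, -0.03, -0.01 and -0.45 from first to last, each with a counting SD of 0.08 to 0.09. After CTCF siRNA they had 0.10, 0.21, 0.31 and 0.15, with SDs of 0.03. The differences were -0.03 ± 0.08, 0.24 ± 0.09, 0.32 ± 0.08 and 0.60 ± 0.09 (counting SD). Crossing contacts of the KLK13 and KLK14 bin numbered 319 of 353 expected in control and 3216 of 2324 expected after CTCF siRNA.

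The difference of the KLK5 and KLK6 bin was within its error at this flank, but with flanks of 800 kb it was 0.23 ± 0.06. The KLK13 and KLK14 bin had the largest difference of the 4 at flanks of 200, 400 and 800 kb. The mean over the 4 bins was -0.09 in control and 0.19 after CTCF siRNA, a difference of 0.28 (0.14 to 0.43). Of the 4 bins, 2 rose by at least 0.3 and 0 fell by as much. Over chromosome 19, 17.6% of 988 bins rose and 11.2% fell by this amount, the median difference being -0.02, and over chromosomes 1 to 22 and X 24% rose. These counts are for flanks of 400 kb. With flanks of 200 kb the 4 bins differed by 0.15, 0.25, 0.20 and 0.40, and with 800 kb by 0.23, 0.34, 0.43 and 0.59. How many of them reached 0.3 thus depends on the flank. Adjacent bins share most of their flanks, so the 4 bins are not independent. A larger rise than that of the KLK13 and KLK14 bin was found in 44 bins of chromosome 19.

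The KLK13 and KLK14 bin was on the slope of a minimum and was not itself the lowest bin. The control minimum was the next bin, chr19:51600001-51640000 with CTU1 and SIGLEC9, at -0.73 ± 0.09. There the value after CTCF siRNA was 0.08 ± 0.03, a difference of 0.81 ± 0.10, and it was still the lowest of its 5 bins. The 3 bins of the KLK3 end differed by -0.36, -0.25 and -0.12, each ± 0.08, with the last within 2 SDs of 0. With flanks of 800 kb these differences were 0.03, 0.06 and 0.16, so their direction depends on the flank.

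Control had 6 other local minima within 1200 kb of the 4 bins. The deepest, at -1.21, was the bin of FPR1, FPR3 and ZNF577, 720 kb beyond KLK14, and it had -0.53 after CTCF siRNA. The SIGLECL1 bin had -0.38 and 0.19. On the KLK3 side the bin of JOSD2, ASPDH and LRRC4B had -0.10 and 0.15. The bin of C19orf81 and SHANK1, which has no BglII site and was not usable, had 0.11 and 0.27. It has a value because the insulation value of any bin comes from its flanks alone. The 2 farthest minima had differences below 0: the IZUMO2 bin had -1.01 and -1.19, a difference of -0.19 ± 0.11 that is within 2 SDs of 0, and the bin of IL4I1, NUP62 and ATF5 -0.80 and -1.05, a difference of -0.25 ± 0.10. Of 58 control minima at or under -0.5 on chromosome 19, 55.2% rose by at least 0.3, and their median difference was 0.36. A rise of at least 0.3 at such a minimum was therefore common on the chromosome. The minima were chosen for low values in control, which by itself favours a rise. The 0.81 beside KLK14 is to be read against both. A larger rise than this 0.81 was found in 14 bins of chromosome 19.

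**Figure D5:**
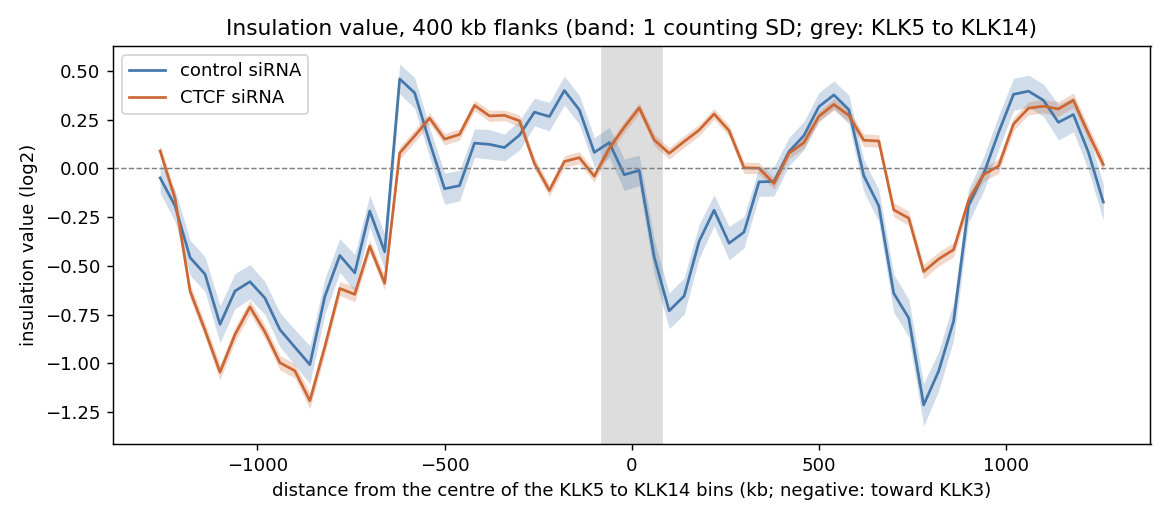
The horizontal axis is the distance from the centre of the KLK5 to KLK14 bins, shaded grey, and the vertical axis the insulation value on a log2 scale with a band of 1 counting SD. In control the line falls at the right edge of the shading to -0.73 in the bin of CTU1 and SIGLEC9, and after CTCF siRNA it stays near 0, at 0.08 in that bin.

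The domains called by the authors did not place a border in or beside the 4 bins. In both lists the same domain, chr19:50620001-52300000, covered KLK5 to KLK14, starting 820 kb before the segment and ending 700 kb after it, inside the FPR block. The next domain ended at 52740000 in control and 52780000 after CTCF siRNA. The domain before it began at 49100001 in control and at 50420001 after CTCF siRNA. The SIGLEC block thus lay within the domain of the KLK genes in both conditions, and the zinc-finger block outside it.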

How the data were processed

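The values deposited by the authors were contact counts between 40 kb bins, with the libraries of each condition pooled, and lists of domain start and end positions. Per the study's methods, reads were mapped to hg19 and filtered with HiCUP, and domains were called from the directionality index. The submitters' processing notes name FastQC 0.11.2, Bowtie 1.1.0, SAMtools 1.2 and Picard 1.121. The deposited contact values were whole numbers outside positions 9400001 to 48120000 of each chromosome and carried a factor per position inside. Dividing it out gave whole counts, within 0.0101 plus 0.05% of the value, for 99.3% of the values checked in control and 99.7% after CTCF siRNA. KLK5 to KLK14 lie outside that range, so their contacts with each other and with the blocks are counts as deposited. Bins with under 10% of the chromosome's median contacts were left out. Expected values were the mean per distance on chromosome 19. The insulation value used flanks of 10 bins and needed 50% of bin pairs usable. Intervals are 95% Poisson, exact binomial or counting SDs, and cover counting error only, since PCR and ligation add error of their own. Gene positions came from GENCODE 44 on GRCh37. Partners named outside the 4 bins were the local insulation minima in control (lowest of 5 bins), and the 3 highest and 3 lowest ratios within 30 bins with at least 10 contacts expected. The bins of NAPSA, HAS1 and MYBPC2 were named for their values besides these. The members, blocks and settings were chosen with earlier results of these data known. Python 3.11.15, NumPy 2.4.6 and SciPy 1.17.1 were used, and the insulation and ratio code was tested on simulated counts.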

Additional observations from a re-analysis of the deposited data

How the results depend on the processing

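The 7 values that answer the comparisons were recomputed under 57 alternatives in all. In 51 the value lay within its own 95% counting interval, and no value whose interval excluded no difference turned its direction. With the expected values taken from all autosomes in place of chromosome 19, all 4 contact ratios were higher. The ratio within KLK5 to KLK14 became 1.25, with the KLK3 end 1.48 and with the SIGLEC block 2.19. Read pairs within a chromosome numbered 13665308 in control and 56303920 after CTCF siRNA over all chromosomes, and 198885 and 1258667 on chromosome 19. How far this larger gain on chromosome 19 accounts for the higher ratios was not tested. Dividing counts by the totals of both bins gave 1.29 for the SIGLEC block. With flanks of 5 bins the insulation difference of the KLK13 and KLK14 bin was 0.40, and with 3 bins on each side the share on the KLK3 side differed by -4.70 percentage points. The zinc-finger ratio ranged from 2.36 without the KLK13 and KLK14 bin to 5.48 with all autosomes. Leaving out the SHANK1, LRRC4B and NAPSA bins, an alternative chosen after seeing the data, moved the ratio with the bins before KLK1 from 0.796 to 0.992. The levels with balanced counts were likewise added after seeing the data. Depth limits the far blocks most, since control had only 7 contacts with the zinc-finger block. No paired analysis was possible because each condition came as a single merged map, with no value per library.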
